A study of Mus musculus with 12 samples.

Results

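Polysome-bound RNA of fully grown mouse oocytes lacking Cnot6l was compared with that of wild-type oocytes at the germinal vesicle (GV) stage, before meiosis resumes. The comparison rests on 4 libraries, 2 from wild-type (WT) mice and 2 from Cnot6l-/- (knockout, KO) mice. All were C57BL/6, postnatal day 21, and the oocytes were collected 48 h after PMSG, a hormone that stimulates follicle growth. The other 8 libraries of the series are oocytes of both genotypes after 8 h (MI) and 16 h (MII) of culture. Of 23235 genes in the deposited table, the 11667 with a mean of at least 1 FPKM over the 12 libraries were tested, where FPKM is a fragment count corrected for transcript length and sequencing depth. The labels do not give the deleted part of Cnot6l, the number of oocytes in a library or whether replicates were separate pools. The p-values therefore measure the spread between these libraries, which may be technical.

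A fully grown GV oocyte no longer transcribes and lives on mRNA stored during growth. CCR4-NOT is the main cytoplasmic deadenylase complex, which shortens poly(A) tails and so silences mRNAs and starts their decay. CNOT6L is one of its catalytic subunits, related to CNOT6, while CNOT7 and CNOT8 form the other catalytic family. Large-scale clearance of stored mRNAs begins when meiosis resumes, so the GV stage is the state from which maturation starts. A polysome-bound level depends both on how much of an mRNA the cell holds and on how much of it is on ribosomes, and these libraries alone do not separate them. Nor can fewer cells be told apart from less RNA per cell.

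The targeted gene had 38.7 and 16.1 FPKM in the WT libraries and 6.28 and 21.6 in the KO libraries, so the genotypes overlapped. Its difference was -1.02 on the log2(FPKM + 1) scale with a standard error (SE) of 0.57, and limma did not call it (adjusted p = 0.626). At MI it had 68.5 and 47.9 FPKM in WT and 23.5 and 16.5 FPKM in KO (adjusted p = 0.0726 by limma, 0.0427 after median scaling), and at MII 65.2 and 49.4 FPKM against 16.4 and 16.0 FPKM (-1.75, adjusted p = 0.0425). The level over the whole gene thus separates the genotypes at MI and MII but not at GV, and whether it covers the deleted part is not given in the sources used here. Cnot6l lies on the minus strand at chr5:96505816-96591009 (mm9). Of the 83 tested genes within 10 Mb of it, limma called 0, and the median difference there was 0.06. Across all tested genes, WT replicates differed by a median of 0.39 (log2) and KO replicates by 0.46. Pearson's r across genes was 0.927 between the WT and 0.894 between the KO replicates. FPKM summed to 1252142 and 1280736 in the WT libraries and to 1067558 and 1071813 in the KO libraries, so the KO mean was 15.5% below the WT mean.

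The 10 oocyte markers were present in every library, with summed levels of 36142 and 36734 FPKM in WT and of 26667 and 27926 FPKM in KO. The 12 defining markers of cumulus and granulosa cells, the somatic cells around the oocyte, summed to 329 and 343 FPKM in WT and 206 and 243 FPKM in KO. Of these, 3 (Foxl2, Ptx3 and Tnfaip6) were at 0 in all 4 libraries, and Inha, an inhibin subunit, made up most of the sum with 201 and 239 FPKM in WT and 113 and 152 FPKM in KO. Inha, Inhba, Cyp19a1 and Amh were lower in KO without overlap, and Kitl was higher without overlap. Inhba had 17.2 and 11.6 FPKM in WT and 1.21 and 2.35 FPKM in KO. In Esr2, Amhr2, Fshr and Has2 the genotypes overlapped. On the longer list of 41 such markers, 13 were at 0 in all 4 libraries, and the sums were 990 and 1076 FPKM in WT and 859 and 981 FPKM in KO. Serpine2 made up most of these sums, with 521 and 589 FPKM in WT and 519 and 566 FPKM in KO. Of the 24 cumulus and granulosa markers that were tested, limma called 0, and their median difference was -0.03. Without overlap between genotypes, 8 were lower and 5 higher, against 24.2% and 17.9% of all tested genes. Markers of theca, stroma, endothelium and blood summed to 103 and 55.3 FPKM in WT and 92.6 and 127 FPKM in KO, with 18 of 34 at 0 throughout. The part of somatic RNA in the results that follow was not tested.

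Transcripts lower in KO oocytes outnumbered those higher. limma called 163 genes lower (1.4% of those tested) and 19 higher (0.163%) at a Benjamini-Hochberg adjusted p below 0.05, with a spread pooled over all 12 libraries. The 163 included transcripts of lactate dehydrogenase B, securin, the zona pellucida protein ZP3, the translational repressor ZAR1 and a family of oocyte F-box proteins. Among the 19 were Btg4, an adaptor of the CCR4-NOT complex, and Bcl2l10, an oocyte BCL2 relative. The called-lower genes had a median difference of -0.92, from -4.49 to -0.28, and the called-higher genes one of 1.48, from 0.24 to 4.09; the outer ends of both ranges are genes listed at 0 in one genotype, whose differences depend on the pseudocount of 1. The median of all tested genes was -0.06, with quartiles at -0.49 and 0.37. In all 182 called genes the 4 GV libraries did not overlap between genotypes. This was also so for 2819 of all tested genes in the lower direction (24.2%) and for 2085 in the higher (17.9%).

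After median scaling, which divides each library by its median ratio to the gene-wise geometric mean, 112 genes were lower (0.96%) and 23 higher (0.197%). All 112 were among the 163, and 15 of the 19 higher genes were called again. The share of calls that were lower went from 89.6% to 83.0%. A fit of the 4 GV libraries alone called 0 genes with limma, with 1052 lower and 480 higher at an unadjusted p under 0.05 and a lowest adjusted p of 0.0844. The lower count was 78 without WT replicate 1, 68 without WT replicate 2 and 89 without KO replicate 1, and the higher count was 3, 3 and 7. Of 74 called genes named by rule, 25 were called without each of the 4 GV libraries in turn: Ldhb, Pttg1, Zp3, Zar1, Uchl1, Tle6, Astl, Dppa3, H1foo, Oas1c, Fbxw18, Skp1a, Prdx1, Psmb2, Cox4i1, Rpl5, Rpl10, Rps2, Gtf2b, Sec13, Jun, Dcpp1, Fam54a, Crip3 and Bcl2l10. The other named calls were lost without at least 1 of them. Without the abundance trend in limma's variance model, which assigns a smaller spread to abundant genes, 11 genes were lower and 6 higher, and 10 of the 74 were called.

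**Figure D1:**
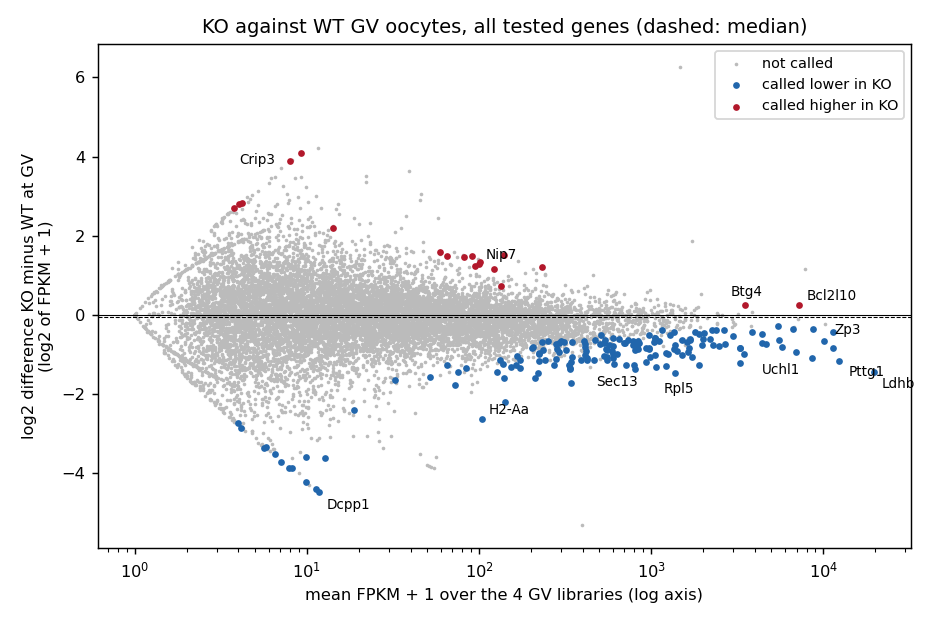
Each point is 1 of the 11667 tested genes, with its mean level over the 4 GV libraries (FPKM + 1, log axis) against the log2 difference KO minus WT; blue points were called lower (163), red points higher (19), and the dashed line is the median of all genes (-0.06). The blue points gather at high levels, where 58 of the 173 genes at 1000 FPKM or more were called lower.

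The calls were concentrated among abundant transcripts. Of the 173 genes with a GV mean of at least 1000 FPKM, 58 were called lower (33.5%) and 2 higher, and their median difference was -0.28 (-0.18 after median scaling). Among the 1970 genes from 100 to 1000 FPKM, 85 were lower (4.31%) and 5 higher, with a median of -0.17. The 5123 genes from 10 to 100 FPKM gave 10 lower and 7 higher calls around a median of -0.03, and the 4105 genes from 1 to 10 FPKM gave 10 and 5 around 0.04. Replicates also differed less at high levels: the median difference between WT replicates was 0.72 at 1 to 10 FPKM and 0.07 at 1000 FPKM or more, and that between KO replicates was 0.88 and 0.11. At low levels only large differences could therefore be called. The 163 lower genes held 24.9% of the summed FPKM of WT libraries and 68.6% of the drop in that sum, and Ldhb alone held 9.23% of the drop. The drop is a net value in which gains offset losses. The genes were chosen as lower in the same libraries, so their share of it is partly set by the choice.

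Ldhb, the heart-type lactate dehydrogenase subunit that oocytes hold in large amounts, was the largest single loss. It had 28350 and 29239 FPKM in WT and 10293 and 10995 FPKM in KO, a KO level of 0.370 times WT. Its difference was -1.44 (SE 0.03, adjusted p = 3.47e-09 by limma; -1.34 after median scaling), but -0.21 with quantile normalization, where it was not called (adjusted p = 0.477). Pttg1 encodes securin, the protein that holds separase inactive until anaphase. Its levels were 16872 and 17503 FPKM in WT against 7896 and 7287 FPKM in KO, a difference of -1.18 (SE 0.04, adjusted p = 5.30e-08). Uchl1, a ubiquitin hydrolase abundant in oocytes, had 11968 and 11523 FPKM in WT and 5588 and 5511 FPKM in KO (-1.08, SE 0.07). In each of these genes both KO libraries lay far below both WT libraries, and replicates of a genotype lay close together.

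**Figure D2:**
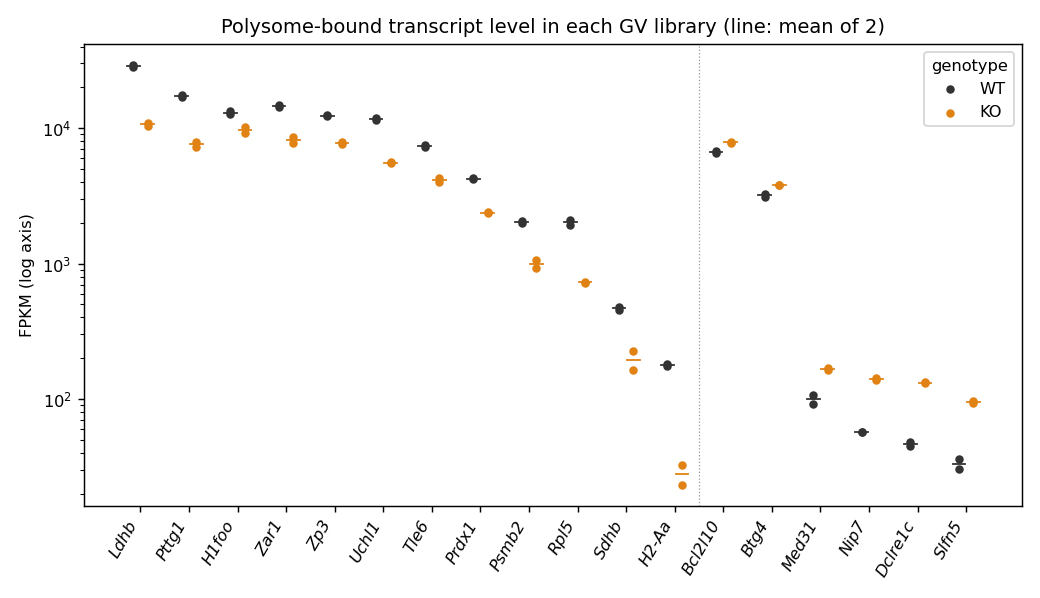
Level (FPKM, log axis) of 18 named genes in each of the 4 GV libraries, WT in black and KO in orange, with a line at the mean of each pair. Left of the dotted line are genes called lower, from Ldhb at 28350 and 29239 FPKM in WT to H2-Aa at 176 and 180 FPKM, and right of it genes called higher; in none of them do the genotypes overlap.

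The egg coat and the subcortical maternal complex, a protein assembly beneath the oocyte membrane that the early embryo needs, were lower in most measured members. Of 11 tested genes on this list 6 were called lower and 0 higher, and all 11 differences were below 0 with a median of -0.37 (-0.28 after median scaling). Of all 11667 tested genes 6271 lay below 0, and 76.9% of those at 1000 FPKM or more. The called-lower shares were 1.4% of all tested genes and 33.5% at 1000 FPKM or more. When each library's abundance trend was taken out, 4 were lower, 1 was higher and 6 lay below 0 (5597 of all tested genes). Zp3, the zona protein bound by sperm in classical models, had 12192 and 12487 FPKM in WT and 7669 and 7893 FPKM in KO (-0.67, SE 0.04, adjusted p = 8.21e-06), and with quantile normalization it was not called (-0.26, adjusted p = 0.547). Zp1, which crosslinks zona filaments, went from 2570 and 2544 FPKM to 1824 and 2135 FPKM (-0.37), a call that median scaling did not keep (adjusted p = 0.187 by limma). Zp2 had 1864 and 1713 FPKM in WT and 1599 and 1687 FPKM in KO and was not called. Tle6, a core member of the subcortical complex, had 7255 and 7543 FPKM in WT and 4031 and 4315 FPKM in KO (-0.83, SE 0.05). Padi6, also on this list, was called lower, with 7538 and 7547 FPKM in WT and 5814 and 5906 FPKM in KO. Its difference turned to 0.06 after each library's abundance trend was taken out. Nlrp5 and Ooep, also of this complex, were not called. Nlrp5 had 912 and 886 FPKM in WT and 699 and 850 FPKM in KO without overlap. Ooep had 1847 and 1911 FPKM in WT and 1877 and 1738 FPKM in KO, where the genotypes overlapped. Astl, the ovastacin protease that cleaves ZP2 after fertilization, fell from 1237 and 1317 FPKM to 808 and 770 FPKM (-0.69, adjusted p = 7.61e-04).

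Other oocyte-restricted transcripts gave the largest number of calls of any list. Of 53 tested, 15 were called lower and 1 higher, with a median of -0.33. After median scaling the calls were 12 and 4. As deposited, 1.4% of all tested genes were called lower, 4.31% from 100 to 1000 FPKM and 33.5% at 1000 FPKM or more. The excess of lower calls was lost under other scalings, with 7 lower and 8 higher after rescaling to equal totals, 7 and 10 with quantile normalization, and 6 and 11 after each library's abundance trend was taken out (median 0.01). Oas1e had 4114 and 4273 FPKM in WT and 2299 and 2373 FPKM in KO, and Oas1c had 1715 and 1813 FPKM in WT and 954 and 967 FPKM in KO. Both are oocyte-expressed relatives of oligoadenylate synthetase, named here with the rest of the family after their values were seen, and 3 of the 6 tested Oas1 genes were called lower. As close copies they may share reads. Folr4, the egg receptor for sperm IZUMO1 now named Juno, went from 807 and 750 FPKM to 369 and 456 FPKM (-0.92, SE 0.14). Gdf9, the oocyte growth factor that acts on granulosa cells, went from 5750 and 6182 FPKM to 4714 and 5131 FPKM (-0.28, adjusted p = 0.0401 by limma), was not called after median scaling and turned to 0.22 with quantile normalization. H1foo, the oocyte linker histone, and Dppa3, which protects maternal DNA methylation, were called lower by -0.43 and -0.36, but they turned positive with quantile normalization and after each library's abundance trend was taken out, and H1foo was then called higher under the first (0.29). Bmp15, the partner of GDF9, had 1379 and 1362 FPKM in WT and 1107 and 1160 FPKM in KO and was not called (adjusted p = 0.106).

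A cluster of Fbxw genes on chromosome 9 was lower throughout, a family singled out after its values were seen. These genes encode F-box proteins with WD repeats, substrate receptors of ubiquitin ligases, and lie between 109041968 and 109648603 (mm9). All 12 tested members were called lower, also after median scaling, with differences from -1.26 to -0.61. Fbxw18 had 2516 and 2873 FPKM in WT and 1029 and 1221 FPKM in KO (-1.26, SE 0.10). Fbxw24, the most abundant, had 5544 and 6080 FPKM in WT and 3486 and 3449 FPKM in KO (-0.74). The calls were 8 after rescaling to equal totals, 9 with quantile normalization and 7 after each library's abundance trend was taken out. The median of the 12 stayed below 0 under each of the 4 other scalings, between -0.83 and -0.63. These genes are close copies, so the authors' counting could have split or shared reads among them, and they do not count as 12 independent results.

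Transcripts of energy metabolism were lower in part. Of 78 tested nuclear-encoded genes of oxidative phosphorylation 6 were called lower and 0 higher, and 65 lay below 0. Of all 11667 tested genes 6271 lay below 0, and 67.8% of those from 100 to 1000 FPKM. limma called 1.4% of all tested genes lower, 4.31% from 100 to 1000 FPKM and 33.5% at 1000 FPKM or more. The median of the 78 was -0.24 (-0.14 after median scaling, 0.00 after rescaling to equal totals, where the median of all genes was 0.16). Sdhb, the iron-sulfur subunit of complex II, had 457 and 480 FPKM in WT and 163 and 227 FPKM in KO (-1.28, SE 0.23). Cox4i1, a subunit of cytochrome c oxidase, went from 2253 and 2408 FPKM to 1178 and 1051 FPKM (-1.07, SE 0.11, adjusted p = 8.97e-04). The ATP synthase subunits Atp5f1 and Atp5b were called lower by -1.08 and -0.79; Atp5f1 overlaps Wdr77 on the genome. Glycolysis, pyruvate and TCA cycle genes had the lowest median of any list, -0.43, yet 2 of 43 were called, Ldhb and Pkm2, the pyruvate kinase, with 943 and 1171 FPKM in WT and 576 and 711 FPKM in KO. Pkm2 was not called after median scaling (adjusted p = 0.0938 by limma).

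The translation machinery also held calls in the lower direction. They stand beside 1.4% of all tested genes called lower, 4.31% of those from 100 to 1000 FPKM and 33.5% at 1000 FPKM or more. Of 84 ribosomal protein genes 7 were called lower and 0 higher, while their median was -0.12 and turned to 0.13 after rescaling to equal totals. Rpl5, a large-subunit protein that carries 5S rRNA, had 1925 and 2102 FPKM in WT and 729 and 725 FPKM in KO (-1.47, SE 0.18). Rpl10, which joins the large subunit late, went from 1516 and 1523 FPKM to 559 and 660 FPKM (-1.32, SE 0.11, adjusted p = 1.66e-04). Ribosomal protein genes have many processed copies, and Rpl5 overlaps Fam69a, so reads may be shared there. Translation factors had a median of -0.33 and 3 of 63 called lower, namely Eif3k (-0.88), Eif4a1 (-0.73) and Eif5a (-0.50, not called after median scaling). Among 36 aminoacyl-tRNA synthetases 1 was called lower, the mitochondrial enzyme gene Fars2 (-0.81), and 0 after median scaling. The 76 mitochondrial ribosomal protein genes gave 0 calls by limma and a median of -0.05.

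Protein quality control and redox genes were lower in a minority of members. Of 42 proteasome genes 5 were called lower, 37 lay below 0 and the median was -0.38, but after median scaling 1 call was left and the median was -0.28. Among all tested genes from 100 to 1000 FPKM 67.8% lay below 0 as deposited, and 76.9% of those at 1000 FPKM or more. Called lower were 1.4% of all tested genes, 4.31% from 100 to 1000 FPKM and 33.5% at 1000 FPKM or more. Psmb2, a subunit of the catalytic core, had 2045 and 1995 FPKM in WT and 925 and 1066 FPKM in KO (-1.02, SE 0.12), and it was called under both scalings. Psmb5, the chymotrypsin-like subunit, went from 1029 and 958 FPKM to 575 and 593 FPKM (-0.77), and was not called after median scaling (adjusted p = 0.0718 by limma). Prdx1 and Prdx2, peroxiredoxins that reduce hydrogen peroxide, were the 2 called of 35 antioxidant genes. Prdx1 had 4177 and 4282 FPKM in WT and 2365 and 2397 FPKM in KO (-0.83, SE 0.06), and Prdx2 had 3276 and 3484 FPKM in WT and 1911 and 2139 FPKM in KO. The heat shock and stress list had 4 of 54 called lower, among them the mitochondrial chaperonin Hspe1 (-0.88) and the constitutive HSP70 gene Hspa8 (-0.45, not called after median scaling).

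Regulators of meiotic arrest and division were for the most part not called, as were most of all tested genes (1.4% called lower, 0.163% higher). The 22 tested genes of cyclic AMP and cGMP control, the pathway that holds the oocyte at GV, gave 0 calls by limma and a median of -0.14. Gpr3, the receptor that keeps cyclic AMP high, had 136 and 86.6 FPKM in WT and 86.9 and 140 FPKM in KO. Pde3a, the phosphodiesterase whose action ends the arrest, had 58.1 and 34.4 FPKM in WT and 42.9 and 47.1 FPKM in KO. Ccnb1, cyclin B1, had 936 and 903 FPKM in WT and 790 and 967 FPKM in KO (-0.07, SE 0.09), and Mos, the kinase upstream of ERK, had 854 and 845 FPKM against 908 and 831 FPKM (0.03, SE 0.08). The genotypes overlapped in all 4 genes.

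Besides Pttg1, the cell cycle list of 57 genes gave 2 lower calls. They were Skp1a, a core subunit of SCF ubiquitin ligases (5236 and 5038 FPKM in WT, 3705 and 3624 FPKM in KO), and Cks2, a CDK1 partner needed for meiosis (1308 and 1308 FPKM in WT, 991 and 1005 FPKM in KO). Cks2 was not called after median scaling (adjusted p = 0.137 by limma). Tacc3, a spindle protein that works with Aurora A, went from 2081 and 2151 FPKM to 1178 and 1197 FPKM (-0.83, SE 0.11), 1 of 2 calls among 67 spindle and kinetochore genes. Sycp3, a component of the meiotic chromosome axis that overlaps Chpt1, was lower at 33.4 and 41.2 FPKM in KO against 92.7 and 89.1 FPKM in WT. It was the single call among 29 cohesin and recombination genes. Over all tested genes 1.4% were called lower, 4.31% from 100 to 1000 FPKM and 33.5% at 1000 FPKM or more.

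The calls on lists of nuclear genes stand beside shares of 1.4% lower and 0.163% higher over all tested genes. Lists of this size cannot tell 0 calls from those shares. Transcription machinery genes gave 3 lower and 1 higher of 80, with Gtf2b, the initiation factor TFIIB, at 514 and 601 FPKM in WT and 268 and 276 FPKM in KO (-1.03, SE 0.12). Pcna, the sliding clamp of DNA replication, was the single call among 50 replication genes (-0.83), although the list's median was -0.35. Sec13, a subunit of nuclear pores and COPII coats, had 920 and 802 FPKM in WT and 383 and 342 FPKM in KO (-1.24, SE 0.15). Spliceosome genes (72) and small RNA pathway genes (28) gave 0 calls by limma; Mael, a piRNA pathway gene, had 151 and 125 FPKM in WT and 33.9 and 47.9 FPKM in KO with an adjusted p of 0.0558.

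At lower levels, several transcripts were found in WT oocytes and listed at 0 in both KO libraries. Among all 23235 genes of the deposited table, tested or not, 25 were at 0 in both KO libraries and at 5 FPKM or more in both WT libraries. There were 11 of the opposite kind. Dcpp1, a secreted salivary-type protein gene, had 23.2 and 19.8 FPKM in WT, and its neighbour Dcpp2 17.4 and 17.9 FPKM; as near-identical copies they may share reads. Jun, the AP-1 transcription factor, had 23.3 and 17.6 FPKM in WT, and Chac1, a glutathione-degrading enzyme of the stress response, had 7.49 and 14.7 FPKM. All 4 were called lower, also after median scaling. H2-Aa, an MHC class II chain normally made by antigen-presenting cells, was found in all 4 libraries, at 176 and 180 FPKM in WT and 23.4 and 32.8 FPKM in KO (0.158 times WT, SE of the log2 difference 0.37, adjusted p = 0.0044). Among blood cell markers Ptprc, Emr1 and Cd3e were at 0 in all 4 libraries, Csf1r reached 0.33 FPKM in 1 KO library, and Cd68 had 4.50 and 0 FPKM in WT and 23.1 and 3.54 FPKM in KO. The part of blood cells was not tested. Fam54a, a mitochondrial fission regulator family member, had 26.8 and 34.1 FPKM in WT and 6.21 and 3.77 FPKM in KO.

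The genes higher in KO oocytes fell into 2 ranges of level. Btg4 and Bcl2l10 were abundant and changed little in relative terms, while the other 17 were far less abundant. Btg4 recruits the deadenylase to mRNAs during maturation and is itself a stored transcript. It had 3269 and 3124 FPKM in WT and 3829 and 3813 FPKM in KO, 1.20 times WT (log2 0.26, SE 0.05, adjusted p = 0.0191). Bcl2l10 had 6573 and 6774 FPKM in WT and 7944 and 7827 FPKM in KO, 1.18 times WT (log2 0.24, SE 0.03, adjusted p = 0.0021). Both KO libraries lay above both WT libraries in each gene, and both calls held after median scaling. Of the 100 most abundant WT transcripts these 2 were the only ones called higher as deposited, against 50 called lower. The WT values that ranked these transcripts also enter the difference, so this split is partly set by the choice.

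The cytoplasmic polyadenylation element (TTTTAT or TTTTAAT) is a signal bound by CPEB1 that controls tail length in oocytes. Copies were looked up in the annotated 3' UTRs of the called genes named by rule with a GV mean of at least 3000 FPKM. That cutoff was chosen after values were seen. Other called genes at this level, such as Fbxw24, were not looked up. The 30 bases around the copy nearest the UTR end are shown for the 2 higher genes and for 2 lower ones, to compare the sites. The lower ones, Gdf9 and H1foo, turned positive with quantile normalization and after each library's abundance trend was taken out. Skp1a and Prdx1, lower genes that have the element and kept their sign, are not shown. The element is in capitals (mm9, GENCODE mouse release 1, all on the plus strand).
Btg4 (higher), chr9:50927903-50927932: gataaatccctTTTTATgtctttttaaaag
Bcl2l10 (higher), chr9:75199387-75199416: ccttaatacatTTTTAATaacttcaaattc
Gdf9 (lower), chr11:53251357-53251386: gagtgctgtggTTTTATgtgacggaagaat
H1foo (lower), chr6:115900176-115900205: gattctgaagcTTTTATtgtctaataagct
The Btg4 UTR of 411 bases held 4 copies, the last starting 67 bases before its end. Its window lies past the gene end given in the deposited table, so the authors' gene model may be shorter. The Bcl2l10, Gdf9 and H1foo UTRs held 1 copy each, 42, 39 and 63 bases before the end. Skp1a (838 bases) held 2 copies and Prdx1 (1566 bases) held 1, so 4 of the 11 lower genes looked up had the element. No copy was found in the UTRs of Ldhb (188 bases), Pttg1 (55), Zp3 (13), Zar1 (146), Tle6 (130), Uchl1 (305) or Dppa3 (267). A copy is a match of letters and not a site shown to act.

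Among the less abundant genes that rose, Nip7, a ribosome biogenesis factor, had 57.3 and 56.7 FPKM in WT and 138 and 142 FPKM in KO, 2.46 times WT (log2 1.29, SE 0.22, adjusted p = 0.0169). Dclre1c, the Artemis nuclease of DNA repair, had 48.5 and 45.4 FPKM in WT and 131 and 134 FPKM in KO, 2.82 times WT. Slfn5, an interferon-inducible Schlafen family gene, had 30.6 and 36.1 FPKM in WT and 93.9 and 97.2 FPKM in KO. Med31, a Mediator subunit, rose 1.67 times from 107 and 91.6 FPKM to 168 and 163 FPKM. These 4 were called under both scalings. Crip3 was listed at 0 in both WT libraries and had 14.95 and 12.92 FPKM in KO, and Lrrc51 was at 0 against 12.7 and 20.4 FPKM. The call of Crip3 held after median scaling, and that of Lrrc51 did not (adjusted p = 0.0762).

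Other genes of mRNA decay and storage were mostly not called, as were most of all tested genes (1.4% called lower, 0.163% higher). On the list of CCR4-NOT subunits and other deadenylases 1 of 23 was called, Btg4, and the median was -0.08. Cnot7 had 208 and 183 FPKM in WT and 227 and 230 FPKM in KO (0.23, SE 0.14), and Cnot8 had 189 and 231 FPKM in WT and 203 and 182 FPKM in KO. Cnot6, the closest relative of the deleted gene, was low in all libraries, at 4.30 and 3.61 FPKM in WT and 0 and 6.12 FPKM in KO. Zfp36l2, which brings CCR4-NOT to AU-rich mRNAs, had 7.88 and 4.37 FPKM in WT and 2.99 and 6.66 FPKM in KO. limma called 0 of the 40 decapping, exosome and uridylation genes.

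Of 46 maternal RNA-binding and translation regulators, 2 were called lower. The called-lower share was 1.4% over all tested genes, 4.31% from 100 to 1000 FPKM and 33.5% at 1000 FPKM or more. Zar1, which stores and represses maternal mRNAs, had 14747 and 14323 FPKM in WT and 7814 and 8544 FPKM in KO (-0.83, SE 0.06, adjusted p = 3.08e-05); with quantile normalization the adjusted p was 0.110. Pabpc1l, the embryonic poly(A)-binding protein, had 371 and 399 FPKM in WT and 190 and 162 FPKM in KO (-1.13, SE 0.17). A list of 25 transcripts, chosen as translated on maturation through a polyadenylation element, had 1 call in each direction and a median of -0.08. The calls were Btg4 (higher) and Pabpc1l (lower). Members were not selected by a search for the element. The annotated 3' UTR of Pabpc1l (499 bases) held 0 copies of TTTTAT or TTTTAAT.

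**Figure D3:**
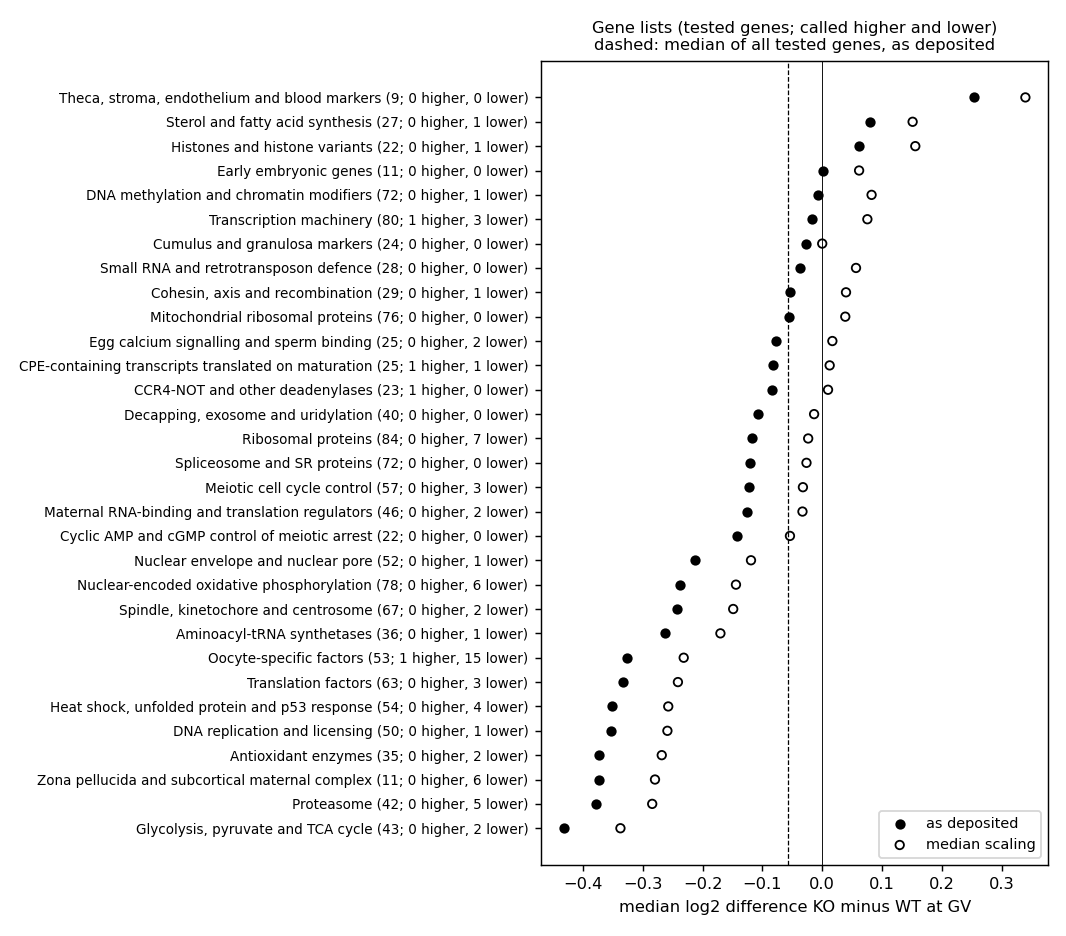
Median log2 difference KO minus WT at GV of each gene list with at least 5 tested genes, as deposited (filled) and after median scaling (open), with the number tested and called in each direction; the dashed line is the median of all tested genes (-0.06). Glycolysis, proteasome, zona and antioxidant lists lie lowest, and calls in the higher direction occur on 4 lists.

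Annotated 3' UTRs of the lower genes were short. They had a median of 288 bases over 157 genes, against 823.5 over the 10690 tested genes with one. Abundant genes as a whole had shorter UTRs: among genes at 100 FPKM or more the median was 278.5 for the 138 called lower and 473.5 for the 1898 not called. A polyadenylation element (TTTTAT or TTTTAAT, transcribed strand) was present in 31.9% of these lower UTRs and 46.7% of those not called, and in 57.0% of all. The AU-rich heptamer TATTTAT was present in 9.42% and 16.3%, against 24.9% of all, and the Pumilio motif TGTANATA in 15.9% of both groups. Copies of different motifs may overlap. Per kilobase of UTR, the lower genes held 1.04 polyadenylation elements, 0.235 AU-rich heptamers and 0.382 Pumilio motifs, and those not called 1.40, 0.285 and 0.259. UTR length and abundance move with these shares, and their part was not tested. Of the 19 higher genes 13 had an annotated transcript (68.4%), too few for the comparison.

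**Figure D4:**
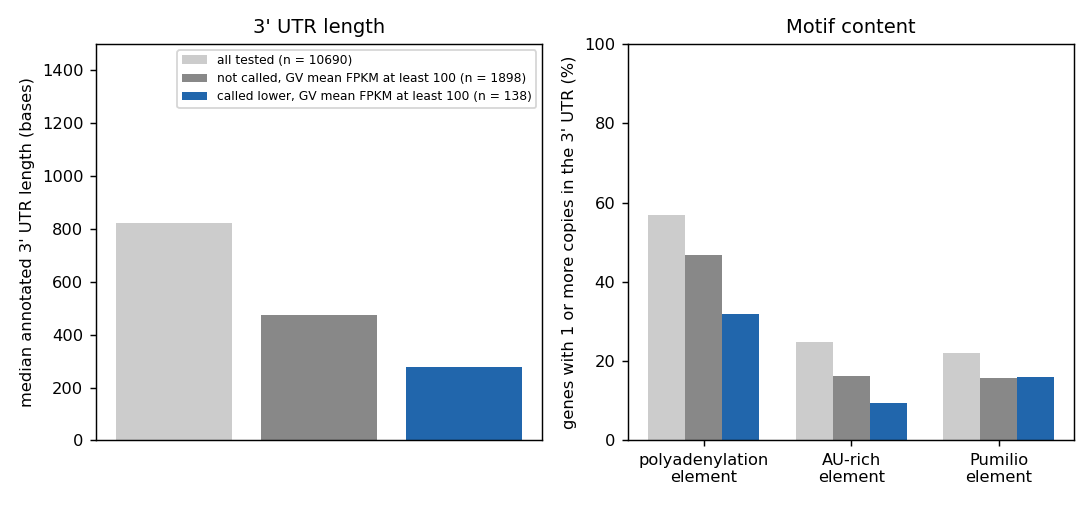
Left, median annotated 3' UTR length in bases; right, percent of 3' UTRs with at least 1 copy of each motif, for all tested genes (light grey), genes not called (dark grey) and genes called lower (blue), the latter 2 at a GV mean of at least 100 FPKM. The blue bars are lowest for length (278.5 bases), the polyadenylation element (31.9%) and the AU-rich element (9.42%), and level with the dark grey bar for the Pumilio motif (15.9%).

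By transcript length, among genes at 10 FPKM or more, the median difference was -0.08 for transcripts under 1000 bases, -0.22 from 1000 to 2000, -0.08 from 2000 to 4000 and 0.02 above that. The lower calls in these classes were 28 of 675, 83 of 2005, 36 of 2906 and 3 of 1425. Genes with no polyadenylation element in the UTR had a median of -0.18 (3082 genes), those with 1 copy -0.09 (1466) and those with 2 or more 0.01 (2269). Median UTR length went up with them, from 350 to 703 and 1639 bases, so the 2 features move together.

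As deposited, most of the GV differences were not called in the same direction at later stages. After median scaling more of the lower genes were called lower than higher at MI, but not at MII. Of the 163 lower genes, limma called 12 lower and 99 higher in KO at MI, where 0.463% of all tested genes were called lower and 27.9% higher. At MII 18 were lower and 103 higher, against 3.2% and 25.4% of all genes. The test of the difference between stages called 163 of the 182 GV genes between MI and GV (14.7% of all genes) and 154 between MII and GV (17.8%). The GV values that chose these genes also enter this test, so its counts are partly set by the choice. Among the lower genes 150 moved up by MI and 1 down. These counts turn on scaling: after median scaling 62 of the 163 were lower and 8 higher at MI, and 35 moved up by MI and 8 down. At MII, scaling gave 49 lower and 61 higher. The shares of all tested genes called at MI and MII after scaling are not given here, so these scaled counts have no background. The medians of the lower genes were 0.53 at MI and 0.75 at MII as deposited, -0.41 and 0.16 after scaling, while all tested genes had 1.03 and 0.81, then 0.21 and 0.41.

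Ldhb shows the change in one gene. At MI it had 31855 and 31549 FPKM in WT and 43040 and 44411 FPKM in KO, and at MII 21864 and 21472 FPKM against 33694 and 33830 FPKM. The difference thus went from -1.44 at GV to 0.46 at MI and 0.64 at MII, or from -1.34 to -0.50 and 0.03 after median scaling. Pttg1 stayed lower at MI, with 30652 and 31147 FPKM in WT and 18960 and 18864 FPKM in KO (-0.71), and after median scaling (-1.68). At MII its direction turned on scaling, with 22801 and 23423 FPKM in WT and 28480 and 28735 FPKM in KO (0.31 as deposited, -0.30 after scaling), called in each direction by limma. Sdhb had 78.2 and 75.6 FPKM in WT at MI and 364 and 341 FPKM in KO, so the genotype that was lower at GV was higher at MI, also after scaling (1.22).

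**Figure D5:**
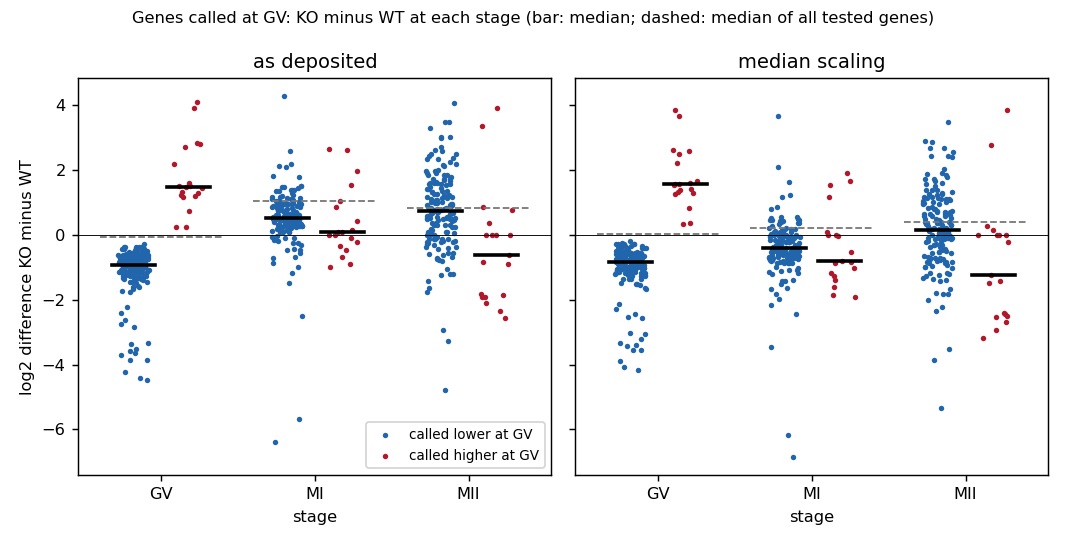
Log2 difference KO minus WT at GV, MI and MII of the 163 genes called lower (blue) and the 19 called higher (red) at GV, as deposited (left) and after median scaling (right), with a bar at each median and a dashed line at the median of all tested genes. The GV values chose the genes; at MI the blue median lies at 0.53 as deposited and at -0.41 after scaling, below the dashed line in both.

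Genes called in the same direction at all 3 stages as deposited were 6 lower and 3 higher. The lower ones were Dcpp1, Dcpp2, H2-Aa, Fam54a, Ggct and Cks2, and the higher ones Btg4, Lrrc51 and the predicted gene Gm19757. After median scaling Cks2 was not called at GV, and Lrrc51 was not called at GV or MI (adjusted p = 0.276 at MI). H2-Aa had 241 and 338 FPKM in WT and 54.4 and 45.3 FPKM in KO at MI, and 231 and 245 FPKM against 19.6 and 46.6 FPKM at MII. Ggct, a glutathione-cycle enzyme, had 540 and 598 FPKM in WT and 394 and 343 FPKM in KO at GV, then 1426 and 1389 FPKM against 427 and 408 FPKM at MII. Its difference widened from -0.63 to -1.75. Dcpp1 had 93.7 and 132 FPKM in WT at MI and 0.80 and 0 FPKM in KO. In Btg4 the direction at MI turned on scaling, 0.14 as deposited and -0.83 after scaling. Of the 19 genes higher at GV, 6 were higher and 2 lower at MI as deposited, but 1 was higher and 8 lower after median scaling. At MII 4 were higher and 10 lower under both. The shares of all tested genes after scaling are not given here.

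The genes called at GV were also set beside WT late maturation, a comparison of MI and MII libraries that shares no library with GV. Both comparisons use the same spread of each gene, pooled over all 12 libraries, so their calls are not independent. A gene with a small spread is more readily called in both, and the part of this was not tested. Of the 163 lower genes 100 were among the 1911 that fell from MI to MII in WT oocytes and 13 among the 663 that rose. At a GV mean of at least 100 FPKM, 65.0% of the 143 lower genes fell in WT, against 42.9% of the 1993 genes not called. Of the 19 higher genes 9 rose in WT and 2 fell. Over all 1911 falling genes the GV difference had a median of -0.23 (-0.14 after median scaling), and over the 663 rising genes 0.00 (0.10).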

How the data were processed

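Polysome-bound RNA of 12 libraries was sequenced, 2 for each of 6 groups; per the labels' protocols, 500 pg of amplified cDNA entered a library preparation based on Tn5. The authors deposited FPKM values for 23235 genes, which are not counts. The submitters' processing notes name mm9, Cufflinks 2.2.1, TopHat2 2.0.11, CASAVA 1.8 and Bowtie2 2.1.0 without saying what each did. The annotation, the strand setting, read filters and read depth are not given in these sources. Low values gave no clear read unit (4.14% to 7.02% of low genes at the most frequent ratio to WT replicate 1), so no counts were recovered.

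log2(FPKM + 1) was fitted with limma 3.58.1 in R 4.3.3 as 6 group means over 12 libraries (residual df 6, prior df 4.27, abundance trend), 2-sided, Benjamini-Hochberg adjusted over all 11667 genes; differences understate the change of low genes. The interaction is KO minus WT at MI or MII minus that at GV. Tested on simulated data of the GV comparison, the fit found 11 of 100 genes with a true log2 change of 1, and 45 of 100 with one of 2. It wrongly called 4 of 11467 unchanged genes. Samples with the same replicate number did not deviate together (r = 0.0096 between the GV groups), so they were not paired.

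Members and the 32 lists were chosen with earlier results of these data known; mitochondrially encoded genes are not in the table used here. Named genes are drawn from the 12 largest called changes each way without overlap and with at least 5 FPKM in the higher group (increases filled with uncalled genes), up to 4 called members of each list (or 2 uncalled), fixed genes (Cnot6l, Cnot6, Cnot7, Cnot8, Btg4, Zfp36l2, Ccnb1, Mos, Gdf9, Bmp15, Zp3, Gpr3, Pde3a), genes at 0 in 1 genotype, and genes called at all 3 stages; predicted genes were left out. Not all of these genes are reported here. Alternatives were other scalings, pseudocount, filters, samples and spread, a replicate block, and leaving out each library. Symbols were matched to GENCODE mouse release 1 (same build), with a transcript for 95.1% of tested genes.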

Additional observations from a re-analysis of the deposited data

Results flagged for a closer look

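A difference between stages was tested with limma's interaction over all genes. As deposited, 163 of the 182 genes called at GV had a KO minus WT difference at MI unlike that at GV, and 154 one at MII unlike that at GV. These counts are partly set by the choice of genes, since the GV values that chose them enter the test, and by the median of all genes, which was 1.03 at MI as deposited and 0.21 after median scaling. After scaling 55 of the 182 passed at MI, and at MII 100 of the 163 lower genes moved up and 9 down. No share over all genes is given here for these scaled counts. Of the 74 named called genes, 25 passed this test at MI both as deposited and after median scaling with the same sign, and 24 of them are given here; values are log2, MI minus GV, as deposited and then after median scaling.

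In 17 of them, all lower in KO at GV, the difference moved upward by MI. The sizes were smaller after scaling. Zar1 moved by 2.064 (1.003 after scaling), Tle6 by 1.768 (0.71), Zp3 by 1.57 (0.51) and Uchl1 by 1.726 (0.66). Tacc3 moved by 2.273 (1.21), Rpl5 by 2.974 (1.91), Eif3k by 1.999 (0.94) and Gtf2b by 1.965 (0.90). Among metabolic genes Sdhb moved by 3.457 (2.40), Atp5f1 by 2.548 (1.49), Cox4i1 by 2.838 (1.78) and Ldhb by 1.9 (0.84). The proteasome genes Psmb2 and Psmb5 moved by 2.018 (0.96) and 2.901 (1.84), Dnajb6 by 2.328 (1.27) and Prdx2 by 1.771 (0.71). Chac1, at 0 in KO at GV, was at 0 in WT at MI, and its value of 7.799 (6.90) depends on the pseudocount.

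Genes higher at GV moved down: Crip3 by -3.897 (-3.67), being listed at 0 in all 4 MI libraries, Pbld1 by -1.931 (-2.93), Slfn5 by -1.391 (-2.40), Dclre1c by -1.572 (-2.60), Nip7 by -1.51 (-2.55) and Bcl2l10 by -0.1554 (-1.22). Ggct, lower at GV, moved further down by -0.5576 (-1.62).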

How the results depend on the processing

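Signs of the 182 calls were kept in 182 after median scaling and after rescaling to equal totals. They were kept in 179 with quantile normalization and in 177 after each library's abundance trend was taken out. Under the other alternatives no sign could change, so the kept signs there are not a test. Filters (173 calls tested at a mean of at least 5 FPKM), the spread model and leaving out MI or MII libraries do not alter the GV difference. In all 182 calls the GV libraries did not overlap between genotypes. Another pseudocount or leaving out a GV library therefore could not turn a sign. The calls themselves changed more. Genes higher and lower were 47 and 75 after rescaling to equal totals (TPM), 49 and 90 with quantile normalization, 40 and 65 after each library's abundance trend was taken out, 6 and 11 without the trend in limma's prior and 0 and 0 in the 4 GV libraries alone; without a filter 43 were higher. The median of all genes was 0.0249 after median scaling, 0.159 with TPM, 0.0226 with quantile normalization, 0.0288 with the abundance trend removed, -0.0675 with a pseudocount of 0.1, 0 without a filter and -0.0794 at a mean of at least 5 FPKM. GV calls that changed by MI were 55 after median scaling, 68 with TPM, 70 with quantile normalization, 62 with the abundance trend removed and 105 without the trend in the prior.

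Dppa3, H1foo and Gdf9 turned to 0.0536, 0.289 and 0.220 with quantile normalization and to 0.0967, 0.0445 and 0.140 with the abundance trend removed. Padi6 and E330021D16Rik turned to 0.0591 and 0.0244 with the abundance trend removed. The cause was not tested. Leaving out each library in turn gave 3 to 27 higher genes, 68 to 210 lower genes and a median of -0.0794 to -0.0377. The higher count was 9 without either KO MI library and 10 without either KO MII library. The replicate block gave 12 higher and 147 lower genes, and the numbers did not pair the samples (r from -0.029 to 0.055). Omitting both WT MII libraries, an alternative chosen after seeing the data, gave 27 and 207. Dcpp1 and Fam54a were called in every setting except the GV libraries alone. The read depth behind each value is unknown.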

Other observations

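Calls on lists not described in the report stand beside shares of 1.4% lower and 0.163% higher over all tested genes. Sterol and fatty acid synthesis genes had a median difference of 0.08 with 1 of 27 called lower, Insig1, which holds back sterol synthesis, at 433 and 428 FPKM in WT and 259 and 271 FPKM in KO. Histones and histone variants had a median of 0.06, with H1foo the 1 called of 22. Egg calcium and sperm binding genes had 2 of 25 called lower, among them Folr4. DNA methylation and chromatin modifiers had a median of -0.01, with Dppa3 the 1 called of 72. Nuclear envelope and pore genes had a median of -0.21, with Sec13 the 1 called of 52. limma called 0 of 11 early embryonic genes (median 0.00) and 0 of 9 markers of theca, stroma, endothelium and blood (median 0.25).

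By chromosome, the lower calls were most numerous on chromosome 9, with 21 of 666 tested genes, 12 of them Fbxw genes, and on chromosome 5, with 16 of 797. The 11 tested Nlrp genes had a median of -0.43, and 2 were called lower, 0 after median scaling. The 4 tested Obox genes, oocyte homeobox genes, had a median of 0.02 and 0 calls as deposited, 1 higher after median scaling.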
